A study of Homo sapiens with 12 samples.

Results

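The 58 genes described here encode the replication-dependent core histones and the linker histones, the proteins that package newly made DNA. They are the genes whose symbol is H1-1 to H1-6 or is built from H2AC, H2BC, H3C or H4C and a number, each read from a probe set that carries that 1 symbol. They are 58 of the 17958 genes compared: 6 H1, 14 H2A, 16 H2B, 9 H3 and 13 H4 genes. RNA was measured on 12 arrays in 231BR cells, a line selected for growth in brain from human MDA-MB-231 breast cancer cells, which lack estrogen receptor alpha. All the cells carried EGFP, and the EGFP-positive human cells were sorted after 24 h of culture. The 4 groups of 3 arrays were estradiol with mouse astrocytes, vehicle with mouse astrocytes, estradiol alone and vehicle alone, with estradiol at 10 nM. The series title names paracrine effects of estrogen, passed to the tumour cells by receptor-positive astrocytes, as its question. Whether the 3 samples of a group came from separate cultures is not in the labels, and the spread behind each p-value may then be technical. The arrays come from 1 cell line, and their number limits the precision. Signals of different probe sets do not rank RNA amounts, so differences are taken between arrays, and a mean level says only where on the signal scale a probe set lies.

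Core histones H2A, H2B, H3 and H4 form the octamer around which DNA is wound, and linker histone H1 binds where DNA enters and leaves it. Most of their genes lie in clusters, have no introns and are transcribed in S phase, when DNA is copied. Their main mRNAs end in a stem-loop, which the stem-loop binding protein SLBP holds, and not in a poly(A) tail. Several of these genes can also give polyadenylated transcripts, mostly in cells that leave the cycle. Whether the RNA amplification used here captured RNA without a poly(A) tail is not given in the sources used here. In sorted bulk RNA, fewer cells of a type and less RNA per cell cannot be told apart.

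In the RefSeq annotation of GRCh38.p14, 50 of the 58 genes lie on chromosome 6, 32 in the first block of the histone cluster at 6p22 and 18 in the second. A further 7 lie on chromosome 1, 5 of them at 1q21 and 2 at 1q42, and H4C16 is the 1 gene on chromosome 12. RefSeq promoters were matched for 53 of the 58 genes. The 250 bases before the annotated start are printed for 4 genes on which the results turn: the H2A and H2B genes with the largest differences, the H4 gene with the largest difference, and the 1 gene that went the other way. Capitals mark 3 short motifs searched on both strands: TATAAA, a form of the TATA box, CCAAT, and the octamer ATTTGCAT. Exact letters were counted anywhere in the window, so a TATAAA match need not be a TATA box. Near forms, such as tataag in H2AC15, were not counted. Where TATAAA and its reverse overlap, both are in capitals.
H2AC15 (chr6:27838376-27838625, minus strand): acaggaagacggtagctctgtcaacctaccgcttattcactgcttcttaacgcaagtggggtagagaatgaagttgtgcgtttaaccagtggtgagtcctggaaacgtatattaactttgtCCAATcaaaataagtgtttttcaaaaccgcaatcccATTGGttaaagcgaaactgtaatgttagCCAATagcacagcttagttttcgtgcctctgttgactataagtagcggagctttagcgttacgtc
H2BC9 (chr6:26251364-26251613, plus strand): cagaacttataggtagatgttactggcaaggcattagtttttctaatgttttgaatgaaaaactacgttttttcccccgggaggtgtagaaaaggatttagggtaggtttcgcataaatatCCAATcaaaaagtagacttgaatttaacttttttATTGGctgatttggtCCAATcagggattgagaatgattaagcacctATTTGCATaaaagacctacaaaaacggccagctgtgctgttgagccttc
H4C2 (chr6:26027284-26027533, minus strand): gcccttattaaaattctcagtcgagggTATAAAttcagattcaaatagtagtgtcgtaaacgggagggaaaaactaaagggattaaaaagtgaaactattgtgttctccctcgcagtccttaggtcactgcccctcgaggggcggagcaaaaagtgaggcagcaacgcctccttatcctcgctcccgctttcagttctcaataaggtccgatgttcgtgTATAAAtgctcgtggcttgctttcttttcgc
H2BC12 (chr6:27146859-27147108, minus strand): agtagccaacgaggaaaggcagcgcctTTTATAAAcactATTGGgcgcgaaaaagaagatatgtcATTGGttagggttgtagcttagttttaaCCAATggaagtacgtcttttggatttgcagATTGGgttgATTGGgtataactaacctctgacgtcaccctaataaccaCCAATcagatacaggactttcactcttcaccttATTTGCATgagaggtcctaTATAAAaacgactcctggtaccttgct

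The motifs differed by family. TATAAA stood in 35 of the 53 matched promoters (66%), against 11.1% of the 27305 promoters of the same length in the table. CCAAT stood in 45 (84.9%), against 33% of all promoters, and in every matched H1, H2A, H2B and H3 promoter but in 3 of 11 H4 promoters. The octamer stood in 23 (43.4%), against 1.66% of all promoters. It was in 10 of 13 H2A and 13 of 16 H2B promoters and in no H1, H3 or H4 promoter. In most of these H2A windows it stood on the other strand only, and in most of these H2B windows on the same strand. Paired H2A and H2B genes start 215 to 248 bases apart, so their windows overlap and the same octamer can count for both. The counts are therefore of windows, not of separate octamers. These matches describe the letters in the window.

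Astrocytes went with higher signal for most of these genes. In the mean of both treatments, 6 arrays with astrocytes against 6 without, 39 of the 58 genes rose and 0 fell, by limma with a Benjamini-Hochberg adjusted p under 0.05 over all genes. Over all 17958 genes 24.5% rose in that comparison. Same-numbered arrays of the 2 astrocyte groups deviated together (r = 0.789, 0.756 and 0.214), which this fit did not model. The 6 arrays with astrocytes may therefore not be independent, and these p-values may be too small. At an unadjusted p under 0.05, 42 histone genes were higher and 0 lower. Of all 17958 genes 10510 had such a p, in either direction. The median log2 difference was 0.59 over the histone genes and 0.07 over all genes, and 57 of the 58 differences were above 0. The 6 arrays with astrocytes lay above the 6 without for 24 histone genes, and for 12.2% of all genes.

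Under estradiol, 15 of the 58 genes rose with astrocytes, against 5.03% of all genes that rose. The median difference was 0.66 (all genes 0.07) and 57 genes were above 0. An unadjusted p under 0.05 was reached by 37 genes, against 7880 of all 17958 genes in either direction. The groups of 3 arrays did not overlap, with astrocytes higher, for 46 genes, against 27% of all genes. Under vehicle, 1 gene rose, H2AC15, against 0.0167% of all genes. There the median difference was 0.53 (all genes 0.06) and 56 genes were above 0. An unadjusted p under 0.05 was reached by 23 genes, against 5073 of all 17958 genes in either direction. The groups did not overlap, with astrocytes higher, for 30 genes, against 23.4% of all genes. The counts of 15 and 1 rest on single arrays: with each array left out in turn, they ran from 0 to 32 and from 0 to 24, and no call stood in every one of these fits. Without replicate 2 of estradiol with astrocytes, 6 genes rose under estradiol and 24 under vehicle. Without replicate 3 of vehicle with astrocytes the vehicle median was 0.29. In the mean of both treatments the count ran from 26 to 41, and 25 of the 39 calls stood in every leave-one-out fit. Counts over all genes in these leave-one-out fits are not given here. The swings are thus not shown to be particular to the histone genes. H4C14 and H4C15 had the same value on every array, so the 58 genes hold 57 separate measurements.

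**Figure D1:**
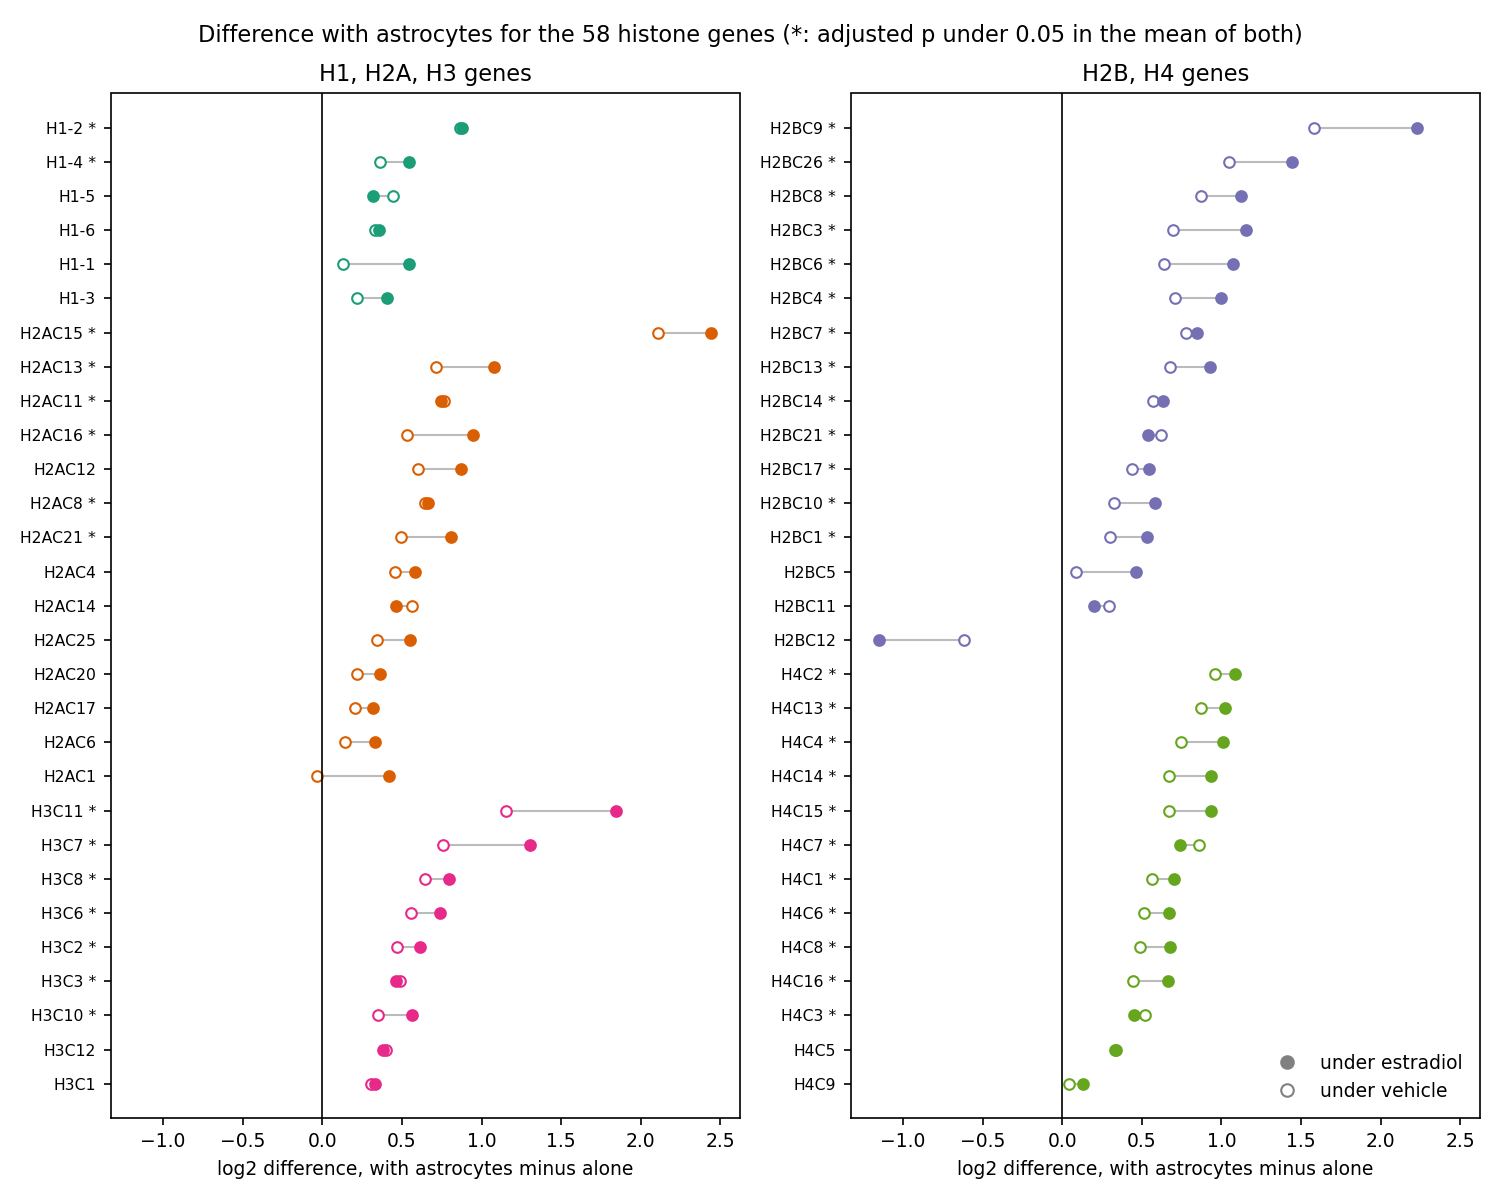
The horizontal axis is the log2 difference, with astrocytes minus alone, and each row is 1 of the 58 genes, grouped by family. Filled points are the difference under estradiol and open points that under vehicle (3 arrays a group), and a star marks the 39 genes past the threshold in the mean of both. H2BC12 is the 1 gene with both points clearly left of 0.

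H2A genes are the first of the octamer. Of 14, 6 rose in the mean of both treatments (H2AC8, H2AC11, H2AC13, H2AC15, H2AC16 and H2AC21) and 8 did not pass, with a family median of 0.59. H2AC15 had log2 signals of 9.74, 9.61 and 9.68 with astrocytes under estradiol and 9.16, 9.12 and 10.05 with astrocytes under vehicle, against 7.04, 7.12 and 7.53 alone under estradiol and 7.51, 7.01 and 7.49 alone under vehicle. All 6 arrays with astrocytes lay far above all 6 without, and replicate 3 of vehicle with astrocytes was the highest. H2AC15 was 4.84-fold higher with astrocytes in the mean of both (log2 difference 2.27, SE 0.19, adjusted p 0.000322). By treatment its difference was 2.44 under estradiol (adjusted p 0.00591) and 2.11 under vehicle (adjusted p 0.0264).

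H2AC13 had log2 signals of 8.11, 7.26 and 7.83 with astrocytes under estradiol and 7.08, 7.23 and 8.02 with astrocytes under vehicle, against 6.72, 6.63 and 6.61 alone under estradiol and 6.85, 6.71 and 6.64 alone under vehicle. Every array with astrocytes was above every array without, and the difference was 0.90 (SE 0.20, adjusted p 0.00735). H2AC21, the H2A gene with the highest mean signal, had 10.33, 10.24 and 10.51 with astrocytes under estradiol and 9.68, 9.75 and 10.54 with astrocytes under vehicle, against 9.48, 9.69 and 9.48 alone under estradiol and 9.51, 9.39 and 9.57 alone under vehicle. Its groups overlapped slightly in the pooled comparison, since replicate 2 of estradiol alone stood above replicate 1 of vehicle with astrocytes, and its difference was 0.65 (SE 0.17, adjusted p 0.0123). The smallest H2A differences were 0.19 for H2AC1, 0.23 for H2AC6 and 0.26 for H2AC17, none past the threshold.

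H2B pairs with H2A in the octamer. Of 16 H2B genes 13 rose, 3 did not pass (H2BC5, H2BC11 and H2BC12), and the family median was 0.70. H2BC9 had log2 signals of 7.28, 8.80 and 7.65 with astrocytes under estradiol and 6.60, 7.97 and 8.04 with astrocytes under vehicle, against 5.71, 5.33 and 6.01 alone under estradiol and 6.16, 6.19 and 5.52 alone under vehicle. The arrays with astrocytes were all higher but widely spread, with replicate 2 of estradiol with astrocytes the highest and replicate 1 of vehicle with astrocytes the lowest of them. H2BC9 was 3.74-fold higher with astrocytes (log2 difference 1.90, SE 0.32, adjusted p 0.00384).

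H2BC26, which lies at 1q42, had 4.38, 5.38 and 4.61 with astrocytes under estradiol and 3.87, 4.82 and 4.52 with astrocytes under vehicle, against 3.21, 3.45 and 3.39 alone under estradiol and 3.17, 3.41 and 3.51 alone under vehicle. The 6 arrays with astrocytes were all higher, and the difference was 1.25 (SE 0.21, adjusted p 0.00384), or 0.67 with the SD of each array's signal as a covariate, still past the threshold. H2BC8 had 3.62, 5.44 and 3.85 with astrocytes under estradiol and 3.78, 4.73 and 3.88 with astrocytes under vehicle, against 3.10, 3.40 and 3.03 alone under estradiol and 3.16, 3.43 and 3.18 alone under vehicle. No array without astrocytes reached those with them, replicate 2 of estradiol with astrocytes stood well above the rest, and the difference was 1.00 (SE 0.30, adjusted p 0.0204). The H2BC8 call was lost with that covariate (0.15, adjusted p 0.665), after quantile normalization (0.82, adjusted p 0.0871), and without replicate 2 of vehicle with astrocytes or replicate 1 of vehicle alone.

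H2BC3 had 8.95, 8.80 and 8.90 with astrocytes under estradiol and 7.88, 7.95 and 9.34 with astrocytes under vehicle, against 8.01, 7.36 and 7.82 alone under estradiol and 8.06, 7.79 and 7.24 alone under vehicle. Replicates 1 and 2 of vehicle with astrocytes lay within the range of the arrays alone, while the 3 arrays of estradiol with astrocytes lay above it, and the difference was 0.92 (SE 0.26, adjusted p 0.0171). H2BC14, the H2B gene with the highest mean signal, had 10.78, 10.56 and 10.76 with astrocytes under estradiol and 10.11, 10.10 and 10.93 with astrocytes under vehicle, against 10.17, 9.83 and 10.20 alone under estradiol and 9.87, 9.92 and 9.64 alone under vehicle. Its highest array was replicate 3 of vehicle with astrocytes, 2 arrays of estradiol alone stood above the 2 lowest arrays with astrocytes, and the difference was 0.60 (SE 0.17, adjusted p 0.0178). H2BC21 had 5.53, 5.62 and 5.84 with astrocytes under estradiol and 5.26, 5.01 and 6.18 with astrocytes under vehicle, against 5.17, 4.97 and 5.24 alone under estradiol and 4.80, 4.99 and 4.80 alone under vehicle, also with overlap, and a difference of 0.58 (SE 0.19, adjusted p 0.0303). The H2BC21 call was lost with the covariate and without any 1 of 6 arrays, which were all those alone but replicate 3 of vehicle alone, and replicate 3 of estradiol with astrocytes. Its difference stayed between 0.40 and 0.76.

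H2BC12 went the other way. It had log2 signals of 9.30, 5.49 and 8.95 with astrocytes under estradiol and 8.87, 7.66 and 8.92 with astrocytes under vehicle, against 9.14, 8.73 and 9.33 alone under estradiol and 9.36, 9.36 and 8.58 alone under vehicle. Replicate 2 was the lowest of its group in both astrocyte groups, and the other 4 arrays with astrocytes lay within the range of the arrays alone. The difference was −0.88 (SE 0.56, adjusted p 0.192), which did not pass. Without replicate 2 of both astrocyte groups it was −0.07, and with the array SD as a covariate it was 0.90 (adjusted p 0.04). A separate probe set that H2BC12 shares with H2BC12L and H2BC6 had a difference of 0.75 (SE 0.14, adjusted p 0.00465), so probe sets that name H2BC12 disagreed in sign.

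H3 carries many of the modified tail residues of chromatin. Of 9 H3 genes 7 rose, H3C1 and H3C12 did not pass, and the family median was 0.54. H3C11 had log2 signals of 4.94, 6.47 and 5.002 with astrocytes under estradiol and 4.55, 5.62 and 4.99 with astrocytes under vehicle, against 3.60, 3.74 and 3.54 alone under estradiol and 4.02, 3.73 and 3.95 alone under vehicle. All 6 arrays with astrocytes were above the 6 without, with replicate 2 the highest in both astrocyte groups, and H3C11 was 2.82-fold higher (log2 difference 1.50, SE 0.27, adjusted p 0.00442), and its difference was 0.73 with the array SD as a covariate, still past the threshold. H3C7 had 3.62, 5.26 and 4.47 with astrocytes under estradiol and 3.71, 4.09 and 4.72 with astrocytes under vehicle, against 2.97, 3.30 and 3.17 alone under estradiol and 3.41, 3.12 and 3.72 alone under vehicle. Its lowest arrays with astrocytes overlapped the highest array of vehicle alone, and the difference was 1.03 (SE 0.27, adjusted p 0.0133). The H3C7 call was lost with that covariate (0.36, adjusted p 0.321). H3C2, the H3 gene with the highest mean signal, had 10.86, 10.78 and 10.99 with astrocytes under estradiol and 10.55, 10.52 and 11.13 with astrocytes under vehicle, against 10.54, 9.95 and 10.32 alone under estradiol and 10.65, 10.30 and 9.85 alone under vehicle. Here the arrays of vehicle with astrocytes overlapped those alone, and the difference was 0.54 (SE 0.18, adjusted p 0.0332). The H3C2 call was lost without any 1 of 6 arrays, with differences of 0.43 to 0.55: replicate 3 of any of the 4 groups, or replicate 2 of either group alone.

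H4 pairs with H3 at the centre of the octamer, and all H4 genes encode nearly the same protein. Of 13 H4 genes 11 rose, H4C5 and H4C9 did not pass, and the family median was 0.63. H4C2 had log2 signals of 10.47, 10.50 and 10.69 with astrocytes under estradiol and 10.17, 10.45 and 10.84 with astrocytes under vehicle, against 9.63, 9.48 and 9.29 alone under estradiol and 9.56, 9.70 and 9.34 alone under vehicle. The groups were well apart, and H4C2 was 2.03-fold higher (log2 difference 1.02, SE 0.15, adjusted p 0.0029). H4C14, the H4 gene with the highest mean signal, had 10.91, 11.30 and 10.996 with astrocytes under estradiol and 10.48, 10.65 and 11.10 with astrocytes under vehicle, against 10.11, 10.09 and 10.21 alone under estradiol and 10.32, 9.95 and 9.95 alone under vehicle. Every array with astrocytes was above every array without, and the difference was 0.80 (SE 0.15, adjusted p 0.00487).

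H4C13 had 3.95, 5.19 and 4.12 with astrocytes under estradiol and 3.79, 4.73 and 4.63 with astrocytes under vehicle, against 3.60, 3.26 and 3.34 alone under estradiol and 3.67, 3.54 and 3.32 alone under vehicle. Its groups did not overlap, and the difference was 0.95 (SE 0.24, adjusted p 0.0121). The H4C13 call was lost after quantile normalization (0.76, adjusted p 0.0519) and with the array SD as a covariate (0.42, adjusted p 0.242). H4C4 had 4.02, 5.40 and 4.02 with astrocytes under estradiol and 3.84, 4.27 and 4.65 with astrocytes under vehicle, against 3.33, 3.54 and 3.55 alone under estradiol and 3.31, 3.62 and 3.59 alone under vehicle. The arrays with astrocytes were again all higher, replicate 2 of estradiol with astrocytes most of all, and the difference was 0.88 (SE 0.24, adjusted p 0.0169). The H4C4 call was lost in the same settings, with 0.70 (adjusted p 0.0826) after quantile normalization and 0.25 (adjusted p 0.441) with the covariate. The smallest difference of all H4 genes was 0.08, for H4C9.

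Linker histone genes had the smallest family median. Of 6 H1 genes 2 rose, H1-2 and H1-4, and the other 4 had differences of 0.31 to 0.38 that did not pass, and the median was 0.36. H1-2 had log2 signals of 8.81, 8.68 and 8.99 with astrocytes under estradiol and 8.31, 8.79 and 9.17 with astrocytes under vehicle, against 8.17, 7.79 and 7.90 alone under estradiol and 8.14, 7.98 and 7.56 alone under vehicle. Every array with astrocytes was above every array without, and H1-2 was 1.83-fold higher (log2 difference 0.87, SE 0.18, adjusted p 0.006). H1-4, the H1 gene with the highest mean signal, had 11.71, 11.96 and 11.69 with astrocytes under estradiol and 11.26, 11.60 and 11.74 with astrocytes under vehicle, against 11.33, 11.18 and 11.20 alone under estradiol and 11.37, 11.18 and 10.97 alone under vehicle. Replicate 1 of vehicle with astrocytes lay among the arrays alone, the other 5 arrays with astrocytes lay above them, and the difference was 0.45 (SE 0.14, adjusted p 0.0231). The H1-4 call was lost with the array SD as a covariate (0.38) and, with differences of 0.40 to 0.46, without replicate 2 or 3 of vehicle with astrocytes, replicate 2 of vehicle alone or replicate 3 of estradiol alone. The difference between families was not tested.

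**Figure D2:**
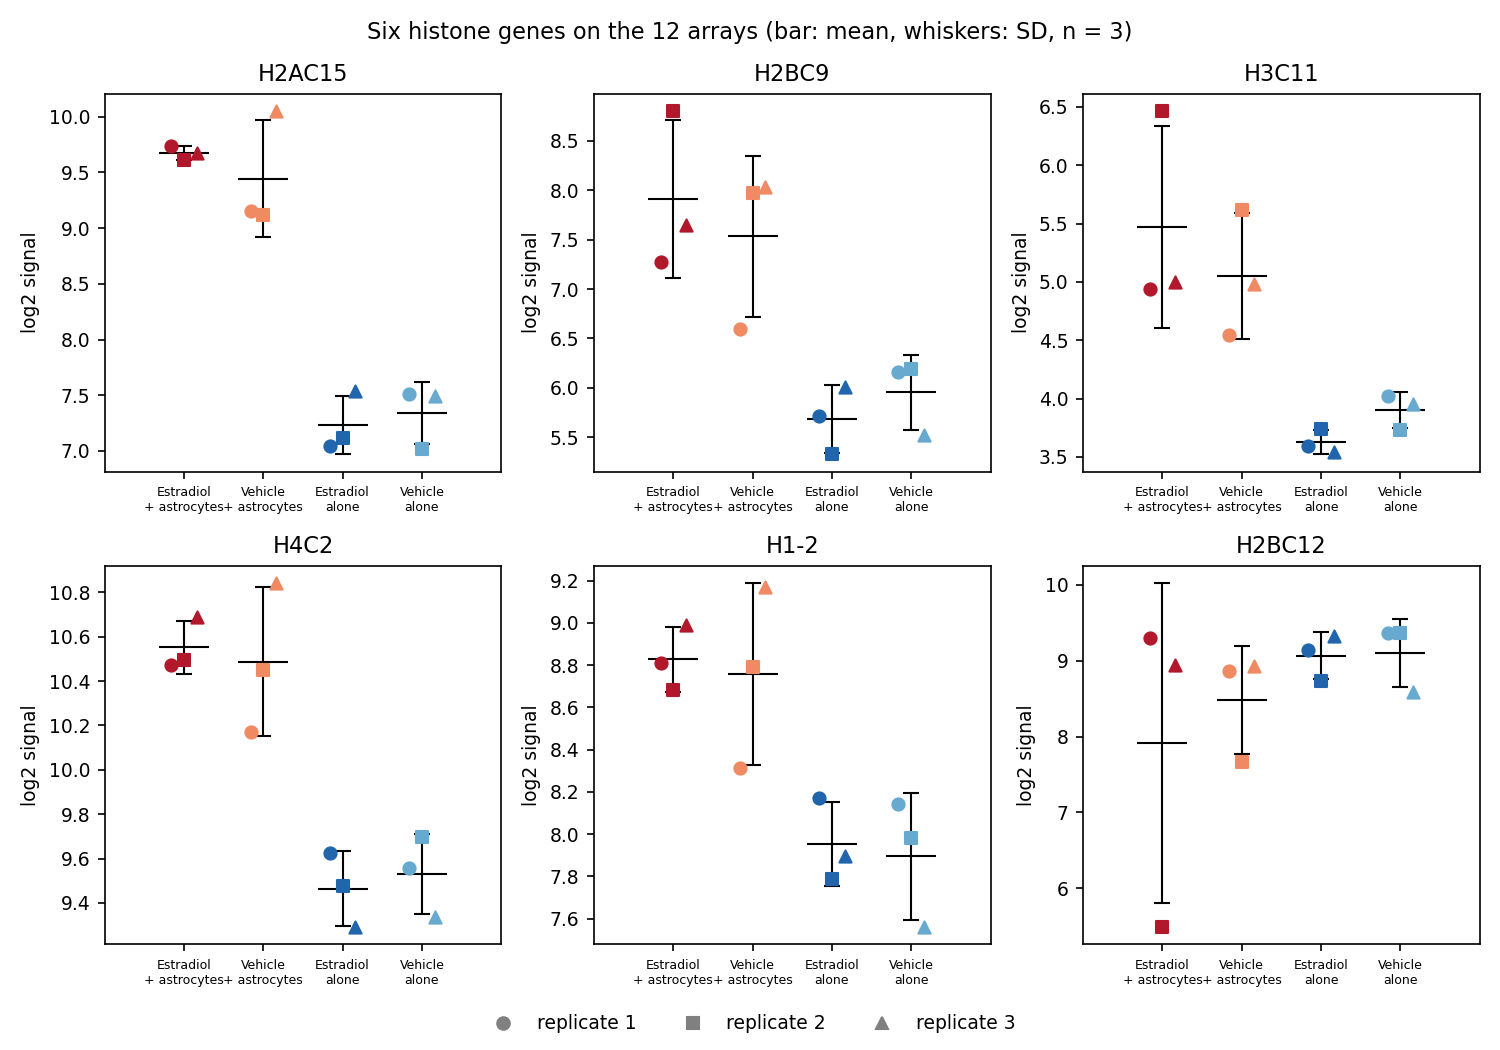
Each panel gives 1 gene on the 12 arrays, in log2 signal, with the groups in the order estradiol with astrocytes, vehicle with astrocytes, estradiol alone and vehicle alone. Points are arrays, marked by replicate number, and bars and whiskers are the mean and SD of 3. The groups with astrocytes lie above those without in 5 panels, and in the H2BC12 panel replicate 2 of estradiol with astrocytes stands at 5.49.

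Co-culture also went with a smaller spread of signal over each array, so values are given beside genes of like level. The SD of log2 signal over all genes of an array was 1.26 to 1.85 in estradiol with astrocytes and 1.49 to 1.79 in vehicle with astrocytes, against 1.88 to 2.00 in estradiol alone and 1.77 to 2.02 in vehicle alone. Over all genes, those with a mean level above the median of 5.11 had a median difference of −0.48 with astrocytes, and those below it one of 0.40. The 29 histone genes above that level did not follow: their median was 0.58, and 20 of them rose, against 11.3% of all genes above that level. The 29 below it had a median of 0.59 and 19 rose, against 37.6% of all genes below it. Across the 58 histone genes the difference had a correlation with mean level of r = 0.04, and across all 17958 genes one of r = −0.49. These are descriptions of the same 12 arrays.

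With the array SD as a covariate the histone genes above the median level had a median of 0.74 and all genes above it one of 0.10, while the histone genes below it had 0.22 and all genes below it 0.01. After quantile normalization these medians were 0.86 and −0.13 above the median level and 0.39 and 0.14 below it. The median over all 58 genes was 0.67 after quantile normalization, 0.66 after centring each array on its median, and 0.62 with the array SD as a covariate, which left 24 genes past the threshold. Median centring itself moved the median of all genes to 0.14. Under the array SD covariate or quantile normalization, 7 genes that had not passed took a difference below 0. They were H1-1 and H1-5 under the covariate, H1-3 and H1-6 under quantile normalization, and H2AC1, H4C5 and H4C9 under both.

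**Figure D3:**
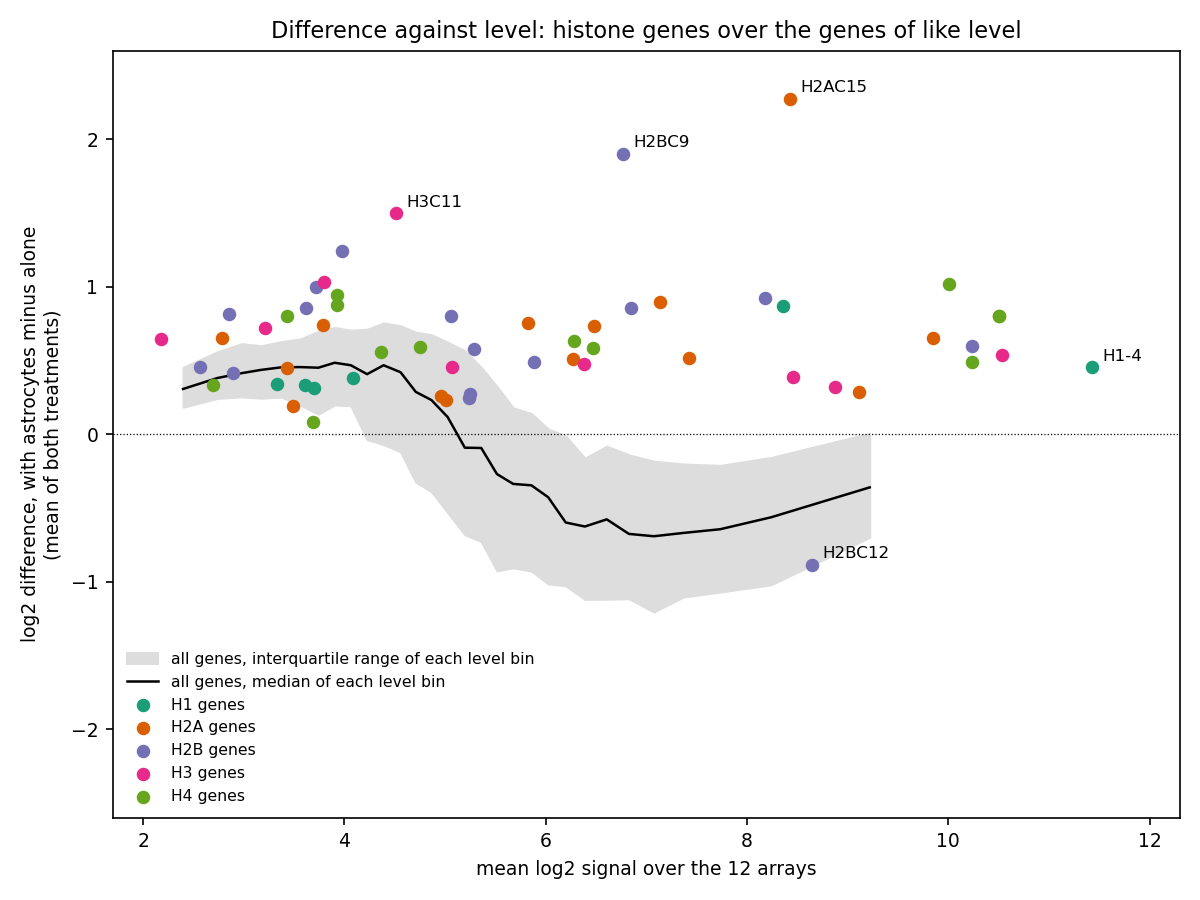
The horizontal axis is the mean log2 signal over the 12 arrays and the vertical axis the log2 difference, with astrocytes minus alone, in the mean of both treatments. Coloured points are the 58 histone genes by family, and the line and band are the median and interquartile range of all genes in 30 bins of level. Above a level of about 6 the line lies below 0 and the histone genes, apart from H2BC12, lie above it.

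Array by array, the 29 higher-level histone genes had a median difference from the 6 arrays alone of 0.81, 0.62 and 0.85 for estradiol with astrocytes and of 0.22, 0.25 and 0.99 for vehicle with astrocytes. All higher-level genes had −0.03, −1.26 and −0.30 on the first 3 of these arrays and −0.12, −0.70 and −0.32 on the other 3. Replicate 3 of vehicle with astrocytes had the highest value of its group for all 29 higher-level histone genes. Replicate 2 of estradiol with astrocytes, which had the narrowest signal range, had the highest value of its group for 24 of the 29 lower-level histone genes and for 7 of the higher-level ones. The part of signal range in the lower-level differences was not tested.

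**Figure D4:**
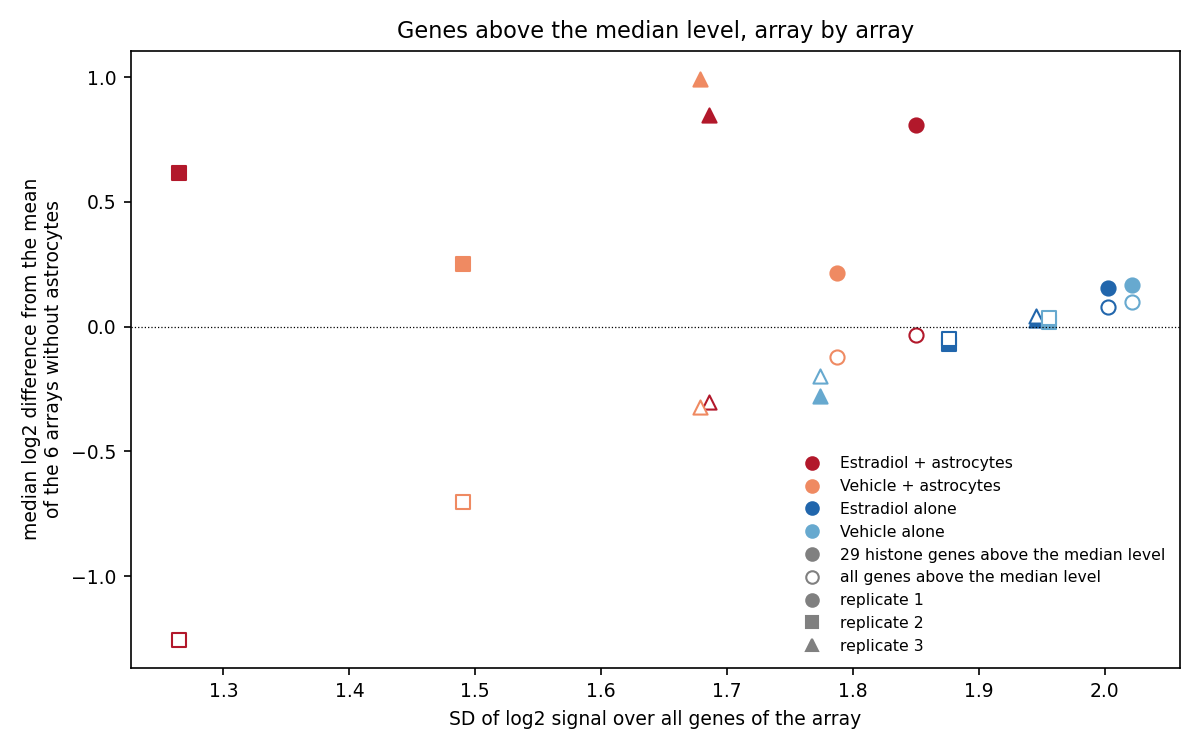
The horizontal axis is the SD of log2 signal over all genes of an array, and the vertical axis the median log2 difference of upper-level genes from the mean of the 6 arrays without astrocytes. Filled points are the 29 histone genes above the median level and open points all genes above it, coloured by group. The 6 filled points with astrocytes lie at 0.22 to 0.99 and the open points of the same arrays at −1.26 to −0.03.

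Genes rose in every part of the clusters. In the first 6p22 block 23 of 32 genes rose with a median difference of 0.59, in the second block 10 of 18 with 0.56, at 1q21 4 of 5 with 0.65, and at 1q42 1 of 2. H4C16 on chromosome 12 rose too, with a difference of 0.55. Genes with the octamer had a median difference of 0.58 (23 genes) and those without it one of 0.59 (30 genes). Genes with TATAAA had 0.55 (35 genes) and those without it 0.66 (18 genes). Genes with CCAAT had 0.54 (45 genes) and those without it, all of them H4 genes, 0.80 (8 genes), and none of these splits was tested. H2AC15 holds neither TATAAA nor the octamer in the window printed above, and nor does H4C9, which did not pass. H2BC12, which did not pass, holds all 3 motifs, as do H2AC11, H2AC21 and H2BC3, which rose.

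Many H2A and H2B genes are transcribed away from each other out of 1 short shared region, and such pairs were compared. Among the 53 genes with a matched promoter there were 10 pairs within 1 kb, start to start. In 9 of them an H2A gene stood with an H2B gene at 215 to 248 bases. The 5 genes without a matched promoter were not searched for pairs, among them H2AC12, which lies beside H2BC12. Of the 10 pairs, both genes rose in 3 and 1 of the genes in the other 7. H2BC13 and H2AC13 had near-equal differences of 0.80 and 0.90. H2BC26 had 1.25 and its partner H2AC25 had 0.45, which did not pass. H2BC4 had 0.85 and its partner H2AC6 had 0.23, which did not pass. H2BC9 and H3C7, whose starts are 979 bases apart, had 1.90 and 1.03. The differences within pairs were not tested.

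Probe sets that match several histone genes gave a second reading. The rule fits 69 genes in RefSeq, and 11 of them are measured here on shared probe sets alone. There were 19 such probe sets with 16 distinct sets of values. In a fit over all 21236 named probe sets, 14 of the 19 rose in the mean of both treatments and 2 fell, against 24.6% of all named probe sets that rose and 22.6% that fell, with medians of 0.51 and 0.07. The sets of H4C11 and H4C12 had differences of 1.11 (SE 0.21, adjusted p 0.00426) and 1.05 (SE 0.25, adjusted p 0.00916). All 4 sets of H3C13, H3C14 and H3C15 rose, by 0.43 to 0.44. The set that H2AC15 shares with H2BC15 rose by 0.76 (SE 0.18, adjusted p 0.0101), against 2.27 for the probe set of H2AC15 alone. Both sets that fell name H2BC18 and the pseudogene H2BP1, with −1.56 and −0.90, while another set of these genes had 0.33 and did not pass. A set that H2BC18 shares with FCGR1BP rose by 0.86 (SE 0.22, adjusted p 0.0132), so sets that name H2BC18 passed in both directions. The set shared by H4C14 and H4C15 had −0.21 and did not pass, against 0.80 for their own probe sets. These near-identical genes cannot be told apart by such probe sets.

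Estradiol did not change these genes past the threshold. With astrocytes present, estradiol against vehicle gave 0 of 58 genes by limma, against 0% of all genes, and 0 histone genes at an unadjusted p under 0.05. Of all genes 142 had an unadjusted p under 0.05. The median difference was 0.20, 51 of the 58 were above 0, against 50.5% of all genes, and the values ran from −0.57 for H2BC12 to 0.50 for H2BC3. For H2BC3 the difference was 0.50, with 8.95, 8.80 and 8.90 under estradiol and 7.88, 7.95 and 9.34 under vehicle, and replicate 3 under vehicle was the highest of the 6. Fitted as 3 pairs of same-numbered arrays, this comparison also gave 0 genes.

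Without astrocytes, estradiol against vehicle gave 0 of 58 genes by limma, against 0% of all genes, and again 0 histone genes at an unadjusted p under 0.05. Of all 17958 genes only 1 had such a p there, so the count of 0 is not particular to the histone genes. The median difference of the histone genes was 0.03, from −0.28 for H3C11 to 0.26 for H2BC21, and 34 of them were above 0. The interaction, which asks whether the astrocyte difference itself changed with estradiol, gave 0 genes by limma, against 0% of all genes, with 0 histone genes at an unadjusted p under 0.05. Only 31 of all 17958 genes had such a p. The interaction median of the histone genes was 0.18, 47 of them were above 0, and the largest value was 0.69 for H3C11. The larger count under estradiol than under vehicle is therefore not shown to be a difference between the treatments. Above the median level the interaction had a median of 0.14 over the 29 histone genes and −0.17 over all genes.

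Other genes of histone biology were read from fixed lists, in the mean of both treatments. In that comparison 24.5% of all genes rose and 23% fell, and of all genes above the median level 11.3% rose and 37.5% fell. Of all genes below it 37.6% rose and 8.53% fell. An unadjusted p under 0.05 in either direction was reached by 5180 of the 8979 genes above that level and 5330 of 8979 below. Of 13 measured replacement variants, which are made outside S phase too, 5 rose and 4 fell, with a median of 0.27. H3-5, an H3.3-like gene, fell to a mean of 6.88 with astrocytes, against 7.96 alone (difference −1.09, adjusted p 0.00401). H2AZ2, an H2A.Z gene, fell to 6.39 with astrocytes, against 7.39 alone (difference −1.01, adjusted p 0.006), a call lost with the array SD as a covariate (−0.50, adjusted p 0.0656). H1-10, a linker variant, rose to 6.69 with astrocytes, against 5.87 alone (difference 0.82, adjusted p 0.00471), and H1-7, a testis linker variant, to 6.23 with astrocytes, against 5.07 alone (difference 1.16, adjusted p 0.0079). The H1-7 call was lost with that covariate too (0.42, adjusted p 0.114).

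The factors that make histone mRNA did not rise as a group. Of 9 regulators of histone transcription 1 rose and 5 fell (55.6%), with a median of −0.71. All 9 lie above the median level, where 37.5% of all genes fell and their median difference was −0.48. With the array SD as a covariate 3 of them rose and 0 fell. NPAT, the cyclin E-CDK2 target that activates histone genes, fell to 6.09 with astrocytes, against 7.38 alone (difference −1.30, adjusted p 0.0114). CASP8AP2, needed for histone transcription, had a difference of −1.11 (adjusted p 0.00953), and both calls were lost with that covariate (NPAT −0.27, adjusted p 0.201, CASP8AP2 −0.34, adjusted p 0.171). E2F1, an S-phase transcription factor, rose by 0.59 (adjusted p 0.0076). Of 15 measured genes for 3′ end processing 1 rose and 4 fell, a share near that of all genes that fell, with a median of −0.52, and 14 of the 15 lie above the median level. NCBP2, of the cap-binding complex, had a difference of −1.17 (adjusted p 0.0231). The NCBP2 call was lost with the covariate (−0.02, adjusted p 0.938), after quantile normalization (−0.92), and without replicate 2 of vehicle with astrocytes or replicate 1 of either group alone. SLBP, named for its role and not by rank, had a difference of −0.10 (adjusted p 0.702). Of 7 genes for histone mRNA decay 0 rose and 3 fell, by limma, and at an unadjusted p under 0.05 0 were higher and 6 lower. All 7 lie above the median level. TUT4, a uridylyltransferase, fell by 1.56 on the log2 scale (adjusted p 0.00384).

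Histone chaperones, the replication machinery and mitotic genes also had negative medians. Of 15 chaperones 4 fell and 0 rose by limma (at an unadjusted p under 0.05, 9 lower and 0 higher), with a median of −0.85, and HIRA, a chaperone of H3.3, fell by 1.03 on the log2 scale (adjusted p 0.00574). Of 32 measured replication genes 2 rose and 7 fell (21.9%), with a median of −0.57. CDT1, a licensing factor, had a difference of 0.54 (adjusted p 0.0146), and POLE, the catalytic subunit of DNA polymerase epsilon, one of −0.76 (adjusted p 0.0149). With the array SD as a covariate both calls were lost (CDT1 0.33, adjusted p 0.162, POLE −0.19, adjusted p 0.382), and POLE was also lost after quantile normalization (−0.37). Of 16 mitotic genes 8 fell (50%) and 0 rose by limma (at an unadjusted p under 0.05, 11 lower and 1 higher), with a median of −1.01, and MKI67, a marker of cycling cells, had a difference of −1.64 (adjusted p 0.00522), or −0.96 (adjusted p 0.0632) with the covariate. All 15 chaperones, all 32 replication genes and all 16 mitotic genes lie above the median level, where 37.5% of all genes fell and their median difference was −0.48. The chaperone and replication shares were below that share.

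These medians and counts depend on the scaling. With the array SD as a covariate the medians turned positive: 0.13 for the transcription regulators, 0.15 for 3′ processing, 0.03 for decay, 0.16 for chaperones, 0.31 for replication and 0.20 for mitosis, against 0.04 for all genes and 0.62 for the histone genes. After quantile normalization they were −0.35, −0.40, −0.53, −0.50, −0.24 and −0.63 in the same order. Of the replication genes 7 rose and 0 fell with the covariate, and 6 rose and 1 fell after quantile normalization. Of the mitotic genes 1 rose and 1 fell with the covariate, and 1 rose and 5 fell after quantile normalization. Of the chaperones 1 rose and 1 fell, of the 3′ processing genes 1 rose and 0 fell, and of the decay genes 0 rose and 1 fell with the covariate.

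RNAs that carry no poly(A) tail were read beside the histone genes. By limma 8 of 15 measured rose (53.3%, against 24.5% of all genes) and 0 fell, and at an unadjusted p under 0.05 8 were higher and 1 lower. Of the 15, 11 lie above the median level, where 11.3% of all genes rose and 37.5% fell. The median was 0.36, and 0.65 after quantile normalization and 0.34 with the array SD as a covariate, which left 4 past the threshold. TERC, the telomerase RNA, had a mean of 9.59 with astrocytes, against 7.71 alone (difference 1.88, SE 0.18, adjusted p 0.000902). RNU12, a minor spliceosome RNA, had 7.29 with astrocytes, against 5.44 alone (difference 1.85, adjusted p 0.0037). VTRNA1-2 and VTRNA1-3, vault RNAs, rose by 1.68 and 1.26 (adjusted p 0.00401 and 0.00415). The part of RNA type or amplification in the histone differences was not tested.

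Markers of other cells were read too, since the human cells were sorted out of a culture with mouse cells. Of 10 astrocyte markers 5 rose (50%, against 24.5% of all genes) and 2 fell (20%, against 23%), with a median of 0.41. Only 4 of the 10 lie above the median level, and of all genes below it 37.6% rose, with a median of 0.40. With the array SD as a covariate 2 of the astrocyte markers rose and 1 fell, with a median of 0.06. NDRG2, with the smallest p of the list, rose by 0.93 (adjusted p 0.00527) and kept its call in all 19 other settings. GFAP, the astrocyte filament protein, had a mean of 5.92 with astrocytes, against 4.98 alone (difference 0.95, adjusted p 0.0125), a call lost with the covariate (0.22, adjusted p 0.286). S100B rose by 0.66 (adjusted p 0.0173), a call lost in 2 of 19 other settings, and ALDH1L1 by 0.60 (adjusted p 0.0386). SLC1A3 and GJA1, a glutamate transporter and a gap junction protein of astrocytes that other cells also make, fell, with differences of −0.94 (adjusted p 0.00735) and −0.64 (adjusted p 0.0205). The SLC1A3 call was lost with the covariate (−0.53, adjusted p 0.101). SLC1A2, another glutamate transporter, rose by 0.46 (adjusted p 0.0489), and AQP4, a water channel, had a difference of 0.08 (adjusted p 0.722). The list's mean log2 signal ran over arrays from 4.62 to 5.02 in estradiol with astrocytes and from 4.54 to 4.62 in vehicle with astrocytes, against 4.37 to 4.51 in estradiol alone and 4.39 to 4.61 in vehicle alone. Over the 12 arrays the 10 markers had mean signals of 2.87 (SLC1A2) to 6.28 (ALDOC), and none is at 0 on this scale. Of 9 microglial markers 4 rose (44.4%, against 24.5% of all genes) and 0 fell by limma (at an unadjusted p under 0.05, 6 higher and 0 lower). Their median was 0.50 (0.12 with the array SD as a covariate). Only 2 of the 9 lie above the median level, so the 37.6% and 0.40 of all genes below it are the nearer comparison. SPI1, a myeloid transcription factor, rose by 1.28 (adjusted p 0.00566), or 0.54 with the covariate, still past the threshold. Of 6 genes listed as present in the line, 1 rose and 3 fell. Of these 6, 5 lie above the median level, where 11.3% of all genes rose and 37.5% fell. S100A4, with a mean signal of 4.99 below that level, rose by 0.62 (adjusted p 0.0165). KRT18 had a difference of 0.26 and AXL one of −0.52, and neither passed. EGFR had a difference of −1.45 (adjusted p 0.00714), a call lost with the covariate (−0.56, adjusted p 0.103). VIM and CD44, which the line is known to make, had mean signals of 10.4 and 9.34 over the 12 arrays. Both were among the 3 that fell, with differences of −0.48 (adjusted p 0.0371) for VIM and −0.93 (adjusted p 0.0148) for CD44. The VIM call was lost in 9 of 20 other settings and the CD44 call in 1 of 20. ESR1, the receptor the line lacks, had a mean of 4.33 with astrocytes, against 3.53 alone (difference 0.80, SE 0.25, adjusted p 0.0256). The ESR1 call was lost in 9 of 19 other settings, among them the covariate (0.06, adjusted p 0.825), quantile normalization (0.62) and the mean of its probe sets (0.53). It was also lost without replicate 2 of vehicle with astrocytes, without replicate 2 of both astrocyte groups, and without replicate 1 or 2 of vehicle alone or replicate 1 or 3 of estradiol alone. The part of other cells in the histone differences was not tested.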

How the data were processed

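RNA of the 12 samples was measured on single-colour Affymetrix arrays with biotin label. The deposited values are log2 signals per probe set, made by the authors; per the submitters' processing notes, RMA and Partek were used, with versions and order not given in the sources used here. RMA corrects background, normalizes and summarises probes. Of 33297 probe sets, 19181 carry 1 gene symbol, 2055 several and 12061 none in the probe table. Where a gene had several (895 genes), the probe set with the highest mean stood for it, giving 17958 genes with no filter on signal. Arrays have no read depth.

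The fit used limma 3.58.1 under R 4.3.3 (lmFit over the 12 arrays with a mean for each group, then contrasts.fit and eBayes), two-sided, with Benjamini-Hochberg adjustment over all genes and a threshold of 0.05, in 6 contrasts. With 3 arrays a side, an exact permutation test has a smallest two-sided p of 0.1. Tables and figures were made with Python 3.11.15, pandas 2.3.3 and matplotlib 3.10.9. Tested on simulated data for the mean of both treatments, the fit recovered 54.8% of log2 changes of 1 and 93.2% of changes of 2 with 7.4 false calls, and under vehicle 20.2% and 76.8% with 3.4 false calls. The simulated noise was independent between genes and equal in all groups, and few genes were changed. The real arrays differed in signal range with co-culture, so these rates need not hold for them. The members and gene lists were chosen with earlier results of these data known.

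By rule, the array values are given for up to 12 members past the threshold by size, the highest-level member of each family and the extremes of each comparison, and up to 4 genes of each other list by smallest p. Other genes named were chosen after their values were seen. Alternatives were the replicate block, quantile normalization, median centring, array SD as a covariate, averaging the probe sets of a gene, genes above the median level, the compared groups only, eBayes with trend and robust options, no number-2 astrocyte arrays, and each array left out. Same-numbered arrays deviated together, with every r above 0.1, only between the 2 astrocyte groups (r = 0.789, 0.756 and 0.214). These groups were therefore fitted as 3 pairs too, for estradiol against vehicle with astrocytes only. The pairing comes from the values, not the labels. Promoters and coordinates are from RefSeq, GRCh38.p14.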

Additional observations from a re-analysis of the deposited data

How the results depend on the processing

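In the mean of both treatments the count of 39 histone genes was 32 to 44 under the other settings, apart from 24 with the array SD as a covariate and 19 among the 29 genes above the median level; with 1 array left out it was 26 to 41, and its median 0.43 to 0.68. Of the 39 calls, 15 stood in every other planned setting, of which 1 tests only genes above the median level and so drops 19 of them. Under vehicle the count of 1 became 6 with the replicate block, 5 with the array SD, 5 with the compared groups only, 0 with trend and robust options and 4 without both number-2 astrocyte arrays; with 1 array left out it was 0 to 24 and the median difference 0.29 to 0.68. Under estradiol the count of 15 became 28 with the replicate block, 4 with the array SD and 0 with the compared groups only; with 1 array left out it was 0 to 32. Under vehicle the count was 7, 0 and 0 without replicates 1, 2 and 3 of vehicle with astrocytes, 4, 24 and 0 without those of estradiol with astrocytes, and 0 without any 1 array alone. Under estradiol it was 32, 6 and 0 without replicates 1, 2 and 3 of estradiol with astrocytes, 0, 0 and 1 without those of estradiol alone, and 1 without replicate 1 or 2 of vehicle alone. The 3 estradiol comparisons kept a count of 0 in every setting, the pairs with their replicate block included; the median of estradiol without astrocytes was −0.0204 to 0.0676 with 1 array left out. The replicate block moved no median and left 41 calls in the mean of both. Counts over all genes in these fits are not given here, so the shifts are not shown to be particular to the histone genes.

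H2BC12 turned positive with the array SD as a covariate (0.95 under vehicle, 0.86 under estradiol, 0.90 in the mean) and, under estradiol, without number-2 astrocyte arrays or without replicate 2 of estradiol with astrocytes (0.0621 each); with 1 array left out its estradiol difference was −1.84 to 0.0621. In the mean of both, quantile normalization gave −0.0122 for H1-3, −0.011 for H1-6, −0.14 for H2AC1, −0.0019 for H4C5 and −0.24 for H4C9. The array SD covariate gave −0.30 for H1-1, −0.0397 for H1-5, −0.27 for H2AC1, −0.12 for H4C5 and −0.23 for H4C9, and 0.24 for EPCAM, 0.0322 for EXOSC10, 0.0816 for NCBP1 and 0.0334 for SNRPG. Without number-2 astrocyte arrays H4C9 was −0.0463. No histone gene past the threshold reversed in the settings run. The cause of these shifts was not tested. Signal over background was not analysed here, so the limit it sets on low levels is unknown.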
